A study of Homo sapiens with 32 samples.

Results

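The regions described here are the peaks of N6-methyladenosine (m6A) that lie in long noncoding RNA (lncRNA) genes and in no gene of another kind. A peak was taken when its summit fell in the RefSeq span of at least 1 lncRNA gene and in no gene of any other biotype. Of the 180114 peaks of 4 lists, 10868 (6.03%) met this rule, and they lay in 1094 of the 18303 lncRNA genes of the RefSeq table. A further 10523 peaks had their summit in a lncRNA gene that overlapped another kind of gene there, a protein-coding gene in 10000 cases, and were not taken.

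All 4 lists come from A375, an established human melanoma cell line, and from RNA of its chromatin-associated fraction after removal of ribosomal RNA. The shMETTL3 group (2 libraries, labelled METTL3 knockdown) expressed a short hairpin targeting METTL3, which catalyses most m6A formation in messenger RNA, and the shControl group (2 libraries, labelled WT) a control hairpin. In both groups a methylated spike-in RNA was added before fragmentation and m6A-bearing fragments were enriched with the antibody-based EpiMark kit (MeRIP-seq). The labels give neither the hairpin sequences nor the degree of knockdown, and leave unsaid whether each library came from its own culture, so p-values measure only the spread between libraries, which may be technical. The other samples of the series (32 in all) are not analysed here.

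The lists held 44108 and 42969 peaks in shMETTL3 and 45345 and 47692 peaks in shControl. The depth of sequencing behind them is unknown, and a peak list does not measure how much of an RNA was present. METTL3 itself had 5 peaks in each of the 4 lists, which does not test the knockdown. For the check of the cell line, a peak in all 4 lists was found in 1 of 8 genes of the melanocyte lineage (MITF) and in 5 of 6 genes of the dedifferentiated melanoma state. The remaining 7 melanocyte genes, among them SOX10, PMEL and TYR, had no peak in any list. Of 8 genes of other cell types none had a peak in all 4 lists, and PECAM1 alone had a peak in any.

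m6A is written on nascent RNA by METTL3 with its partner METTL14, at adenosines within a short consensus whose best known form is GGACU, the letters GGACT in the genome. In messenger RNA it gathers near stop codons and in long exons. lncRNAs are transcribed and often spliced like messenger RNA, but many stay on chromatin, near the place where they are made. Some carry the precursors of microRNAs (miRNAs), and the m6A mark is known to occur on such primary transcripts.

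Sequences are shown first for lncRNA genes whose annotated start region held the summit of a locus on the gene's own strand, since there the reference table gives the letters under the peak. A locus is a stretch of peaks, from any of the 4 lists, that share at least 1 bp on 1 strand. Of 12917 start windows of lncRNA genes, each covering 250 bases before and 50 after an annotated start, 128 were touched by such a locus and 8 held its summit. The 4 below are 2 found in all 4 lists, 1 found in both shMETTL3 lists only and 1 found in both shControl lists only. They are RefSeq sequences (GRCh38.p14, the same build as hg38), written 5′ to 3′ on the gene's strand, with capitals for each match to GGACT.
COX10-DT, chr17:14069409-14069708, minus strand: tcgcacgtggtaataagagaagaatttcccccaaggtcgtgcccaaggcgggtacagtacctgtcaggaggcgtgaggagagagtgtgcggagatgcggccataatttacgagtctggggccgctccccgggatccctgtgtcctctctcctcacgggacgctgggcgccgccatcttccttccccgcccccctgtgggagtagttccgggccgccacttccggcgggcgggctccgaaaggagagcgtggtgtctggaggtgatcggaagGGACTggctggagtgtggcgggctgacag
LINC02475, chr4:44016611-44016910, plus strand: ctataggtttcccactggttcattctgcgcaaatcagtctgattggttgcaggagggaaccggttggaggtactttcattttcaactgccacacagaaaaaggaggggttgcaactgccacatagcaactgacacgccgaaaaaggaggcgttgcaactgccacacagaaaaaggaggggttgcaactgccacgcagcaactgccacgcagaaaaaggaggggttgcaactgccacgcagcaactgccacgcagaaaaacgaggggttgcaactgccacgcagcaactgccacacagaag
LINC02535, chr6:85390137-85390436, minus strand: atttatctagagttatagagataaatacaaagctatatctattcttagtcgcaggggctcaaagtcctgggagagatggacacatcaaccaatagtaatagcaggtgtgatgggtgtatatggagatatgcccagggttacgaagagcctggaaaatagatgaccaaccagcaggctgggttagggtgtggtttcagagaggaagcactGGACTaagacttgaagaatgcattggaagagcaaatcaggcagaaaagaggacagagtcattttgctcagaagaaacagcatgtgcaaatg
LINC01060, chr4:188455328-188455627, plus strand: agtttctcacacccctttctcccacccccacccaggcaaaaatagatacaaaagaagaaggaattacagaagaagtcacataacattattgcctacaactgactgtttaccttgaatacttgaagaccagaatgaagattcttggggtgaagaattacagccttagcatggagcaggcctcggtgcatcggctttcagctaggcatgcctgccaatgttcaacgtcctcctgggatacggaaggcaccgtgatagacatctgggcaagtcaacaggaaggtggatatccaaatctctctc

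COX10-DT, a divergent transcript of the COX10 gene, had fold enrichments of 7.13 and 5.90 in shMETTL3 replicates 1 and 2 and of 4.55 and 3.04 in shControl. The fold is the authors' own value for the enrichment at a peak's summit and ranks peaks within a list. The summit was base 291 of the window, and the 1 match to GGACT started at base 272. LINC02475 had the highest folds of the 8 windows, 10.70 and 11.65 in shMETTL3 and 7.63 and 6.61 in shControl. Its window holds no GGACT, and its commonest unit of 11 letters, gcaactgccac, occurs 8 times in it. The locus of the LINC02535 window had folds of 4.28 and 3.67 in shMETTL3 and no peak in shControl. Its summit, at base 120, and the GGACT, at base 210, both lie before the annotated start of that window. The LINC01060 window held, at base 35, the summit of a locus with no peak in shMETTL3 and folds of 2.41 and 5.85 in shControl. That locus ends at 188455453, ahead of the LINC01060 span, which begins at 188455578. By the rule it thus belongs to another lncRNA gene.

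Over all windows, GGACT was present on the gene's strand in 48 of the 128 touched lncRNA windows (37.5%), in 24.3% of all lncRNA windows and in 25.3% of all 35116 windows of the table. On either strand the shares were 52.3%, 42.2% and 44.2%. No other motif was searched. These shares are descriptions of letters, and a match is not a shown m6A site. Of the 1083 lncRNA genes with a locus, 758 had a start window in the table.

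A second set of sequences belongs to miRNAs whose hairpin was reached by a locus of the host transcript on the same strand. This was the case for 5 hairpins, and 4 of the loci were present in all 4 lists. Since a summit inside an annotated miRNA would have removed the peak by the rule, the summits lie beside the hairpins. One mature miRNA of each of these 4 is given (RefSeq, GRCh38.p14, 5′ to 3′), with its seed, bases 2 to 8, in capitals. No seed is shared between them.
hsa-miR-34a-5p: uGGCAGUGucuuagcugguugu
hsa-miR-138-5p: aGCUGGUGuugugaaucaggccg
hsa-miR-4453: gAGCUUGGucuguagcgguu
hsa-miR-9-5p: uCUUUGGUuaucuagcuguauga

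The locus in MIR34AHG, host of the p53-induced miR-34a, covered chr1:9149580-9151701 on the minus strand, with its summit 79 bases past the 3′ side of the hairpin. Its folds were 11.63 and 8.68 in shMETTL3 and 7.03 and 6.50 in shControl. The locus in MIR4453HG covered the whole hairpin of miR-4453, the only one of the 4 hairpins with a GGACU, and had folds of 11.20 and 9.58 in shMETTL3 and 5.55 and 5.82 in shControl. Both loci therefore had higher folds in each shMETTL3 list than in either shControl list. At miR-138-1, within LOC124909489, the folds were 6.02 and 5.35 in shMETTL3 and 4.48 and 4.56 in shControl. At MIR9-2HG, host of the neural miRNA miR-9, the order was the other way, with 2.85 and 4.04 in shMETTL3 and 7.97 and 7.38 in shControl. Folds of all peaks also ran higher in the shMETTL3 lists (medians of 3.92 and 3.93) than in the shControl lists (3.84 and 3.65), so folds of different lists are set side by side here and not tested.

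The first comparison asked whether knockdown of METTL3 altered the number or the share of lncRNA peaks. shMETTL3 lists held 2668 and 2615 of them and shControl lists 2671 and 2914. The shMETTL3 mean was 2642 ± 37.5 and the shControl mean 2792 ± 171.8 (SD, n = 2 each; two-sided exact permutation test, p = 0.333, the smallest that 2 against 2 lists allow). As a share of the list, the values were 6.05% and 6.09% in shMETTL3 and 5.89% and 6.11% in shControl, which overlap (exact permutation p = 1). The covered length was 1057 kb ± 16.3 in shMETTL3 and 1124 kb ± 74.2 in shControl (exact permutation p = 0.333). The lower number in shMETTL3 went with shorter lists. With every list kept to the 42969 peaks of highest −log10 q, shMETTL3 lists held 63.5 more lncRNA peaks on average than shControl lists, and with a fold of at least 4 they held 147 more.

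**Figure D1:**
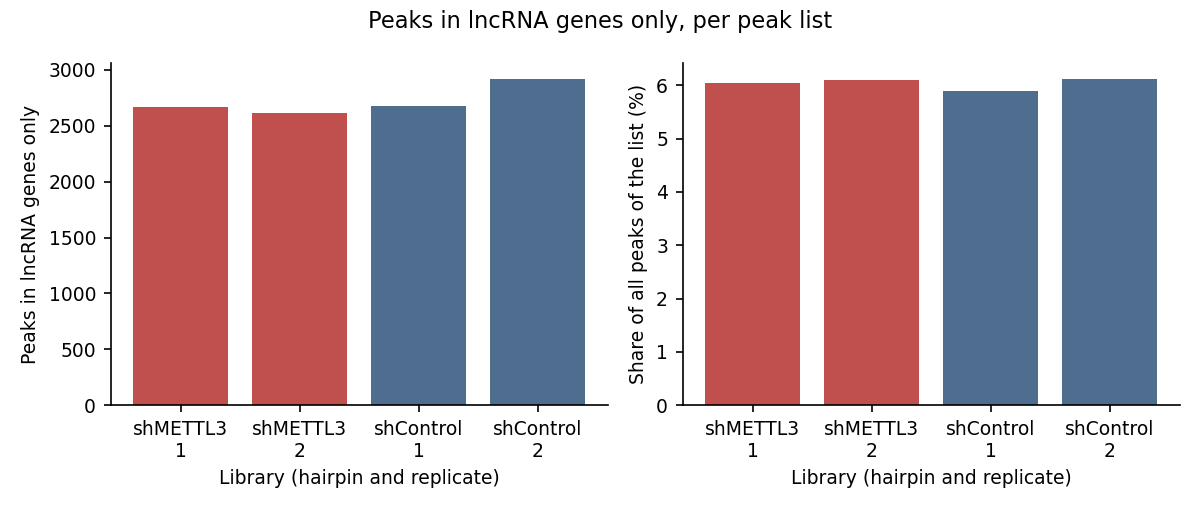
Number of peaks in lncRNA genes only (left) and their share of all peaks of the list in percent (right), 1 bar per library. The 4 shares lie between 5.89% and 6.11%, and the second shControl list holds the most such peaks, 2914.

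lncRNA peaks resembled peaks in protein-coding genes in fold but were wider and had weaker statistical support. Their median fold was 3.93 and 3.92 in shMETTL3 and 3.76 and 3.58 in shControl, against 3.91, 3.90, 3.84 and 3.64 for peaks in protein-coding genes only. The mean difference of -0.0278 ± 0.0508 (SD, n = 4 lists) was smaller than its spread. Their median width was 284 and 277 bp in shMETTL3 and 283 and 282 bp in shControl, a mean of 23.5 ± 9.40 bp above that of protein-coding peaks and higher in 4 of 4 lists. Their median −log10 q was 26.0, 24.7, 25.2 and 25.6 in the same order of lists. The difference from protein-coding peaks was -5.21 ± 0.589 (SD, n = 4 lists), negative in 4 of 4 lists. An exact two-sided sign-flip permutation test over the 4 lists gave p = 0.125 for width and for −log10 q, the smallest value it can give. Between the groups, the lncRNA medians of width and −log10 q overlapped (exact permutation p = 1 for both). The median fold was higher in both shMETTL3 lists than in either shControl list (exact permutation p = 0.333).

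In every list, lncRNA peaks lay earlier along their genes than protein-coding peaks did. The strand of the gene was known from the start table for 54.4% to 57.1% of lncRNA peaks and 81.2% to 81.8% of protein-coding peaks, and position was read for peaks on the gene's own strand in a single gene. In lncRNA genes, 19.3% and 19.5% of such peaks in shMETTL3 and 21.7% and 20.8% in shControl fell in the first 10% of the span, and 7.83%, 8.10%, 7.82% and 7.35% in the last 10%. Protein-coding genes showed the reverse, with 13.5%, 13.3%, 12.4% and 12.2% in the first 10% and 20.3%, 20.7%, 19.1% and 19.2% in the last. The difference, lncRNA minus protein-coding, was 7.48 ± 1.74 percentage points for the first 10% and -12.1 ± 0.623 for the last 10% (SD, n = 4 lists; each of 4 lists in that direction; exact sign-flip permutation p = 0.125, the smallest possible). Without lncRNA peaks within 10 kb of a protein-coding gene, the difference at the end was -10.9 and that at the start only 1.72 percentage points. The median relative position was 0.38 and 0.37 in shMETTL3 and 0.36 and 0.36 in shControl for lncRNA genes, against 0.60, 0.61, 0.59 and 0.60 for protein-coding genes.

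**Figure D2:**
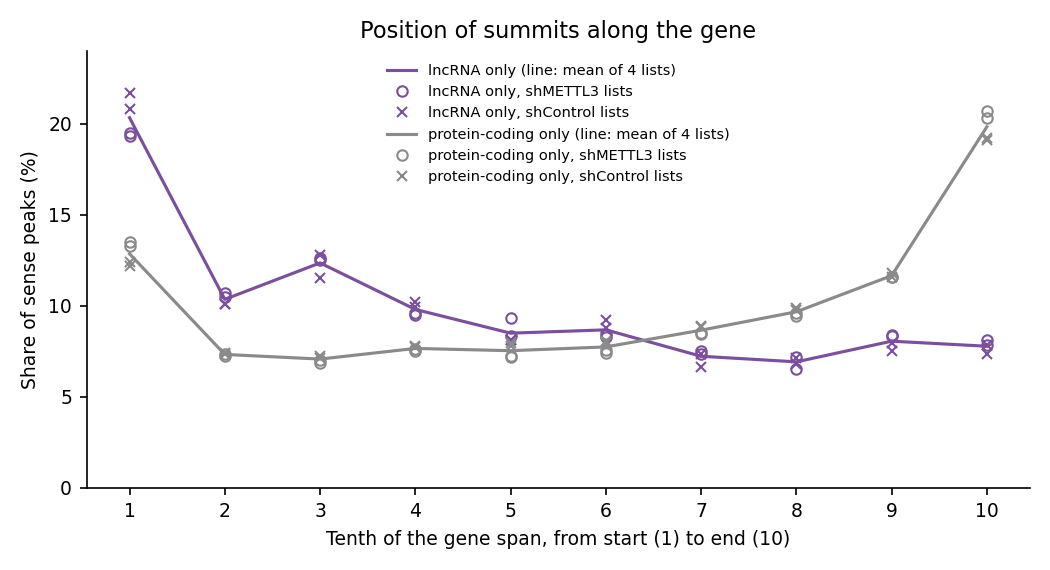
Share of sense-strand peaks (percent, vertical axis) in each of 10 equal bins of the gene span from start to end (horizontal axis), with points for the 4 lists and lines for their means. lncRNA peaks are most frequent in the first bin, 19.3% to 21.7%, and protein-coding peaks in the last, 19.1% to 20.7%.

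lncRNA peaks also lay more often on the strand opposite to the annotated gene. Sense peaks made up 87.9% and 88.1% of lncRNA peaks with a known gene strand in shMETTL3 and 85.2% and 85.1% in shControl, against 97.0%, 96.9%, 97.2% and 97.2% in protein-coding genes. The difference of -10.5 ± 1.78 percentage points (SD, n = 4 lists) was negative in 4 of 4 lists (exact sign-flip permutation p = 0.125, the smallest possible), and was -6.58 without genes of LOC symbols. The shMETTL3 lists had 176 and 170 antisense lncRNA peaks and the shControl lists 225 and 247, without overlap (sense shares of 88.0% ± 0.194 and 85.2% ± 0.0887, SD, n = 2 each; exact permutation p = 0.333). Of 405 lncRNA genes with 3 or more loci, 351 (86.7%) had all of them on 1 strand.

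Peaks in lncRNA genes were mostly far from protein-coding genes. In the 4 lists, 80.6% to 81.7% of them lay over 10 kb from the nearest protein-coding span and 6.35% to 6.82% within 1 kb. Of the loci within 10 kb, the commonest arrangement was a position before the start of the coding gene on its opposite strand, with 395 loci at a median distance of 1.24 kb, which is the layout of divergent transcripts. A further 90 loci lay past the end of a coding gene on its own strand. For 142 loci within 10 kb the strand of the coding gene was not given. By chromosome, the lncRNA share was furthest above the share of all loci on chromosome 13 (6.10% and 2.96%), chromosome 4 (7.53% and 4.45%) and chromosome 18 (5.10% and 2.08%), and was also above it on others, among them chromosomes 8 (5.75% and 3.62%) and 22 (3.52% and 1.85%). It was furthest below on chromosome 1 (6.50% and 10.3%) and chromosome 19 (1.75% and 4.87%).

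The second comparison asked which lncRNA loci were found in 1 group of lists only. The 4 lists gave 4000 lncRNA loci, 1376 (34.4%) of them in all 4 lists. Of 1941 loci in both shMETTL3 lists, 19.3% were absent from both shControl lists and are called knockdown-only (95% Wilson confidence interval 17.6% to 21.1%). Of 2186 loci in both shControl lists, 24.8% (543 loci) were absent from both shMETTL3 lists and are called control-only (23.1% to 26.7%). Over all loci of the lists the shares were 18.9% knockdown-only and 22.6% control-only, so the lncRNA shares are near the background. The intervals cover counting error only, and loci of 1 gene are not independent. Fewer methylated molecules and less of the RNA cannot be told apart in peak lists. With lists of equal length the shares of lncRNA loci were 22.2% knockdown-only and 22.8% control-only, against 20.9% and 21.1% of all loci. With a fold of at least 4 they were 27.7% and 23.7%, against 27.6% and 25.0% of all loci.

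**Figure D3:**
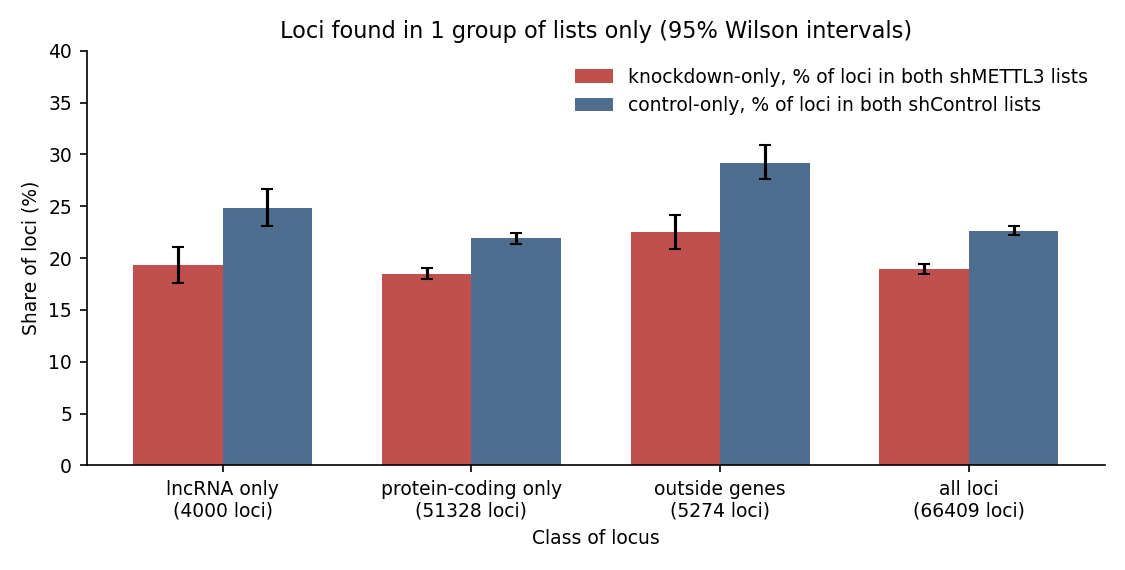
Share of loci found in 1 group only (percent), for loci in lncRNA genes only, in protein-coding genes only, outside genes and for all loci, with 95% Wilson intervals that cover counting error only. lncRNA loci, at 19.3% knockdown-only and 24.8% control-only, lie between protein-coding loci (18.5% and 21.9%) and loci outside genes (22.5% and 29.2%).

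Replicates shared more lncRNA loci than groups did. Of the lncRNA loci of each shMETTL3 list, 78.6% and 80.7% also had a peak in the other shMETTL3 list, and of those of each shControl list 87.7% and 79.3% in the other shControl list. Between a shMETTL3 and a shControl list the shares were 60.4% to 69.3%. Between any pair of lists at most 10 lncRNA peaks had identical coordinates. Within the shMETTL3 lists, the median fold of knockdown-only loci was 3.66 and 3.72 and that of shared loci 4.48 and 4.39. Within the shControl lists it was 3.46 and 3.48 for control-only loci and 4.13 and 4.07 for shared ones.

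Whole lncRNA genes had their loci in 1 group only more often than genes in general did. Of 680 lncRNA genes with a locus in both shMETTL3 lists, 97 (14.3%) had all such loci knockdown-only, against 9.85% of genes of every biotype. Of 765 lncRNA genes with a locus in both shControl lists, 156 (20.4%) had all such loci control-only, against 9.29% of genes of every biotype. The 1083 lncRNA genes had a median of 2 loci and 488 of them had 1, while protein-coding genes had a median of 3, and a gene with few loci meets this definition more easily; the numbers of loci were not matched. SLC12A2-DT, divergent to the gene of a sodium, potassium and chloride cotransporter, had 1 peak in each shMETTL3 list, against 6 and 5 peaks in shControl, and all 5 of its loci in both shControl lists were control-only. LINC02315 had no peak in shMETTL3 and 4 in each shControl list. In the other direction LOC105369881 had 8 and 6 peaks in shMETTL3 and none in shControl, and EDRF1-DT had 5 and 3 peaks in shMETTL3 and 1 in each shControl list. These 4 were picked with their values in view.

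Counted per gene, 110 of 514 lncRNA genes with at least 5 peaks (21.4%) had more peaks in both shMETTL3 lists than in either shControl list, where 19.4% of 8206 genes of every biotype did. Fewer peaks in both shMETTL3 lists were found in 136 lncRNA genes (26.5%), against 27.4% of genes of every biotype. Both shares are near the background.

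The genes described from here on are those with a characterised symbol, since LOC genes are named only in exceptions; 33 of the 75 genes with at least 5 loci in all 4 lists were LOC genes. The 10 genes with most loci held 486 (12.2%) of the lncRNA loci, and 99 genes had 10 or more. EPIC1, an lncRNA reported to bind MYC, had the most, 74 loci over 223.9 kb of chromosome 22 (47631674 to 47855600), all on the plus strand. It had 63 and 59 peaks in shMETTL3 and 37 and 40 in shControl, with 16 knockdown-only and 0 control-only loci. LINC02476 on chromosome 7 (119619430 to 119907375) had 29 loci in all 4 lists, the most of any lncRNA gene, with 47 and 48 peaks in shMETTL3 and 43 and 48 in shControl. Its peak numbers overlap between the groups, unlike those of EPIC1. More peaks in both shMETTL3 lists than in either shControl list were found in 19.4% of genes of every biotype with at least 5 peaks. MIR4527HG, a miRNA host gene on chromosome 18, had 43 and 46 peaks in shMETTL3 and 27 and 31 in shControl, without overlap, and 20 loci in all 4 lists. Between LINC02476 and MIR4527HG in this count stood SLC38A4-AS1 and 4 LOC genes, with 21 to 25 loci in all 4 lists each in the LOC genes. LINC02335, ZFPM2-AS1 and LINC02241 held 12, 16 and 14 loci in all 4 lists, and the peak numbers of the groups touched or overlapped in LINC02335 and ZFPM2-AS1.

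SLC38A4-AS1 had the most control-only loci and also many shared ones. It is named as antisense to the amino acid transporter gene SLC38A4 and lies on chromosome 12 (46383676 to 46652579). Of its 41 loci, 22 were in all 4 lists, 9 were control-only and 0 knockdown-only. Its peak numbers nevertheless overlapped, with 41 and 46 in shMETTL3 and 39 and 42 in shControl. The gene is on the plus strand, as were 30 of the loci; the other 11 were on the minus strand.

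**Figure D4:**
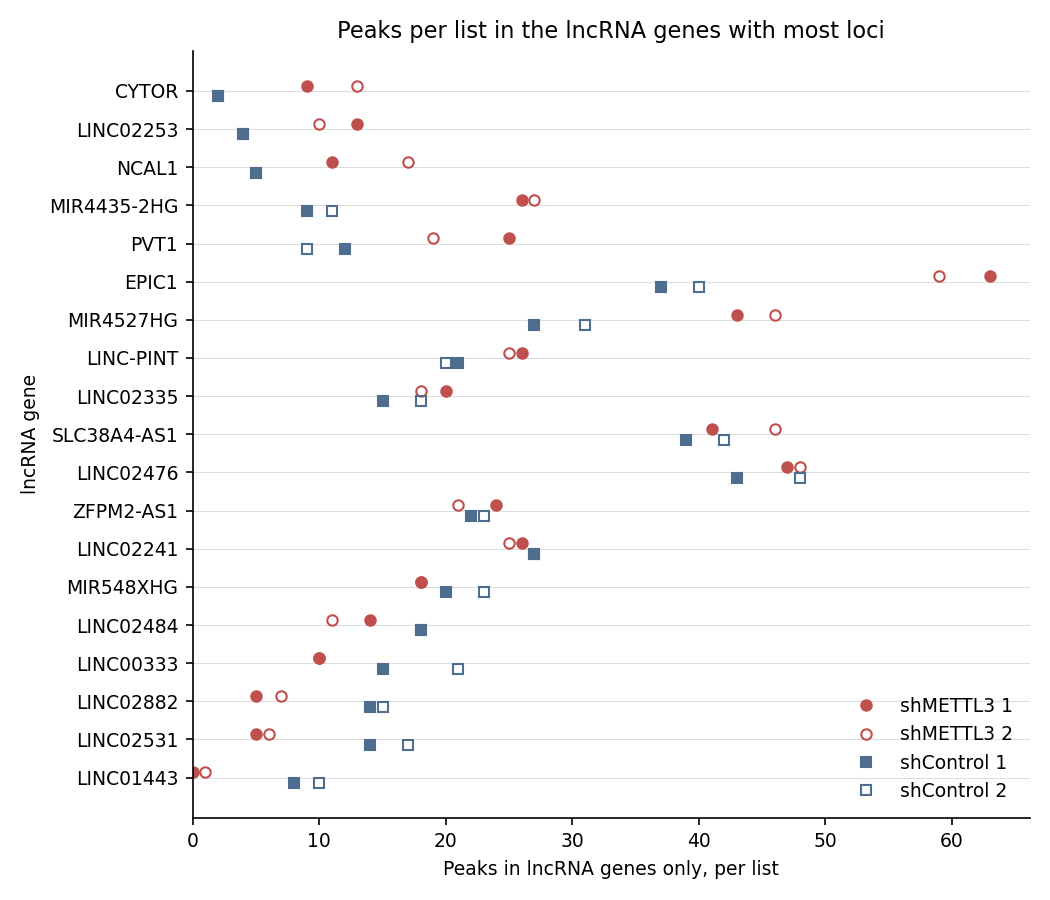
Peaks per list (horizontal axis) in the lncRNA genes with most loci in all 4 lists, most control-only or most knockdown-only loci, ordered by the ratio of shMETTL3 to shControl peaks; filled and open symbols are replicates 1 and 2, and equal values cover each other. CYTOR at the top had 9 and 13 peaks in shMETTL3 and 2 in each shControl list, and LINC01443 at the bottom had 0 and 1 against 8 and 10.

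At least 5 knockdown-only loci were found in 10 lncRNA genes, 2 of them LOC genes. This count, too, has no share over genes of other biotypes beside it. MIR4435-2HG had 26 and 27 peaks in shMETTL3 and 9 and 11 in shControl, with 10 knockdown-only and 0 control-only loci. CYTOR, a lncRNA linked to the cytoskeleton, had 9 and 13 peaks in shMETTL3 and 2 in each shControl list. The 2 genes are near-identical copies on chromosome 2, so peaks of one may come from reads of the other, and all 13 CYTOR loci also lie in the span of NCAL1. PVT1, the neighbour of MYC on chromosome 8, had 25 and 19 peaks in shMETTL3 and 12 and 9 in shControl, and 9 knockdown-only loci. LINC02253 on chromosome 15 had 13 and 10 peaks in shMETTL3 and 4 in each shControl list. In each of these genes the groups did not overlap, a pattern found in 19.4% of genes of every biotype.

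Of 18 lncRNA genes with at least 5 control-only loci, 7 were uncharacterized LOC genes and 6 were LINC genes. No share over genes of other biotypes is given for this count. LOC105378798 and LOC105377177, picked with their values in view, had 8 each, with 5 and 6 peaks in shMETTL3 and 14 and 15 in shControl for LOC105378798, and 1 and 2 in shMETTL3 and 11 in each shControl list for LOC105377177. LINC01443 on chromosome 18 had 0 and 1 peaks in shMETTL3 and 8 and 10 in shControl, all of its 9 loci lying on the strand opposite to the annotated gene. LINC02531 had 5 and 6 peaks in shMETTL3 and 14 and 17 in shControl, and LINC02882 had 5 and 7 in shMETTL3 and 14 and 15 in shControl. LINC01443, LINC02531 and LINC02882 each had 7 control-only and 0 knockdown-only loci. LINC00333 had 10 peaks in each shMETTL3 list and 15 and 21 in shControl, and LINC02484 had 14 and 11 in shMETTL3 and 18 in each shControl list. MIR548XHG, a miRNA host gene on chromosome 21, had 18 peaks in each shMETTL3 list and 20 and 23 in shControl, beside 6 control-only loci. Each gene named here had fewer peaks in both shMETTL3 lists than in either shControl list. Of genes of every biotype with at least 5 peaks, 27.4% did so. With a fold of at least 4, MIR548XHG and LINC02484 each had 1 more knockdown-only than control-only locus.

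Loci were ranked by their percentile of fold in the list where it was lowest; LOC genes held 4 of the first 8 loci in all 4 lists, 4 of the first 8 knockdown-only loci and 1 of the first 8 control-only loci. The highest-ranked locus in all 4 lists was in ZNF496-DT, divergent to a zinc finger gene (chr1:247332819-247333688, plus strand), 1181 bp inside the gene start. Its folds were 13.68 and 15.13 in shMETTL3 and 11.03 and 11.88 in shControl, at percentile 99.6 of the folds of the list where it ranked lowest. LOC105372210 on chromosome 18 and LOC105372310 on chromosome 19 came next, at percentiles 99.2 and 99.1. MRPL20-AS1, antisense to a mitochondrial ribosomal protein gene, had folds of 10.28 and 10.68 in shMETTL3 and 8.32 and 8.63 in shControl. The loci of LINC01029, NCAL1, LINC02055 and LINC01687 were also in all 4 lists and ranked at percentiles of 96.5 to 97.7 by their weakest list. The widest lncRNA locus, 9959 bp in LOC107986770 on chromosome 7, was also in all 4 lists.

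The highest-ranked knockdown-only locus lay in SERTAD4-AS1 (chr1:210231697-210231860, minus strand), with folds of 8.25 and 8.18 in shMETTL3. LOC124905183 on the X chromosome followed, with folds of 8.40 and 7.97. MIR137HG, host of miR-137, had a knockdown-only locus on the strand opposite to the gene with folds of 7.89 and 16.40, and MIR4453HG had a second, knockdown-only locus with folds of 6.92 and 7.61. The highest-ranked control-only locus lay in COPB2-DT, divergent to a coatomer subunit gene (chr3:139406636-139408011, plus strand), with folds of 10.14 and 7.36 in shControl. That gene had 1 peak in each shMETTL3 list and 6 in each shControl list. MIRLET7IHG, host of let-7i, had a single locus, with folds of 6.25 and 7.62 in shControl and no peak in shMETTL3. CYP1B1-AS1, a gene of the plus strand, had a control-only locus on the minus strand with folds of 6.77 and 6.65. All 7 loci in its span are on the minus strand, and 6 of them also lie in another lncRNA gene. LINC01362 and MIR924HG had control-only loci at percentiles 91.8 and 91.6.

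By the form of the gene symbol, 40.4% of the loci in a single lncRNA gene were in uncharacterized LOC genes, 25.5% in LINC genes, 9.09% in antisense (-AS) genes, 7.29% in divergent (-DT) genes and 5.95% in miRNA host genes. Divergent genes had the highest control-only share of all these classes, 46 of 142 (32.4%; 42.3% over 10 kb from coding genes), beside a knockdown-only share of 27 of 121 (22.3%). Over all loci of the lists the shares were 18.9% knockdown-only and 22.6% control-only. Their peak numbers, 165 and 156 in shMETTL3 and 165 and 186 in shControl, touched between the groups. Antisense genes had a knockdown-only share of 22 of 178 (12.4%) and a control-only share of 43 of 207 (20.8%), and 41.6% of their loci were in all 4 lists. The class of other named genes, which holds EPIC1 and PVT1, was the only one of these with a higher knockdown-only share, 24.6% against 18.0% control-only. The classes were not tested against each other.

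**Figure D5:**
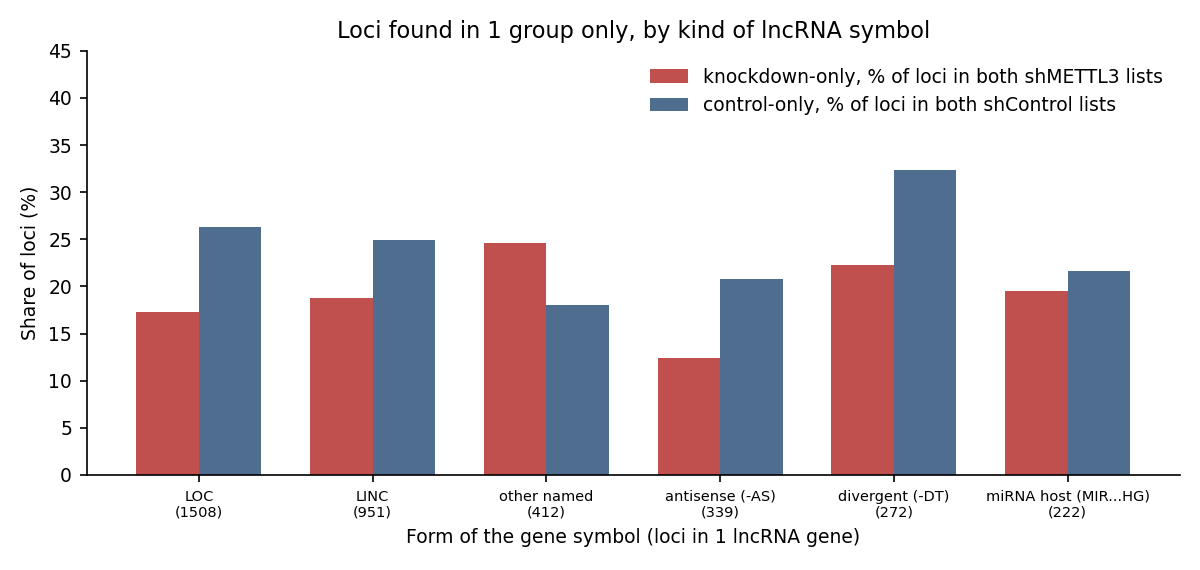
Share of loci found in 1 group only (percent) by the form of the lncRNA symbol, with the number of loci in parentheses; classes with under 20 loci in both shControl lists are left out. Divergent genes stand at 22.3% knockdown-only and 32.4% control-only, and other named genes at 24.6% and 18.0%, where all loci of the lists had 18.9% and 22.6%.

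Loci on the strand opposite to the annotated gene were counted apart, without a test against sense loci. Of 126 antisense loci in both shMETTL3 lists, 28 (22.2%) were knockdown-only, and of 186 in both shControl lists 72 (38.7%) were control-only. Of sense loci, 18.2% were knockdown-only and 25.9% control-only, and of all loci 18.9% and 22.6%. The antisense loci thus lay above sense loci in both shares, by more in the control-only share. Of antisense loci 27.2% were in all 4 lists, against 35.0% of sense loci. The antisense loci were spread over 127 genes, and without the 5 genes with most of them the control-only share was 43.6%. Without these 5 genes, 24 of 95 loci in both shMETTL3 lists were knockdown-only. Their median highest fold, 4.01, was near that of sense loci, 3.99.

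Of the 5 lists of known lncRNAs, the cancer-associated one leaned to shMETTL3. It held 175 loci in 11 of 17 genes, with 47 of 101 (46.5%) knockdown-only and 5 of 56 (8.93%) control-only, against 18.9% and 22.6% of all loci. The control-only share was not stable, and that of all loci, given in parentheses, moved too. Without shMETTL3 replicate 1 it was 22.4% (29.4%), without shMETTL3 replicate 2 16.1% (28.4%) and without shControl replicate 2 14.1% (28.5%). With a fold of at least 4 it was 14.3% (25.0%), and with 50% reciprocal overlap 28.1% (28.2%). The knockdown-only share lay between 39.0% and 53.5% under every alternative tried, where that of all loci lay between 18.9% and 27.6%. EPIC1, MIR4435-2HG, PVT1 and CYTOR, described above, held most of the knockdown-only loci, and MIR4435-2HG and CYTOR may share reads. Control-only minus knockdown-only loci of these genes were -16, -10, -9 and -7. With a fold of at least 4, which leaves fewer loci, they were -6, -5, -3 and -2. DLEU1, in a region of chromosome 13 often deleted in leukaemia, ran the other way, with 3 and 2 peaks in shMETTL3, against 9 and 6 in shControl, and 4 control-only loci. DLEU2, host of miR-15a and miR-16-1, had 3 knockdown-only and 2 control-only loci. In all, 7 of the 11 genes had more knockdown-only and 2 more control-only loci. The list was drawn up with results of these data known, and no test is given.

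The nuclear and chromatin lncRNAs had 77 loci in 8 of 15 genes, 6 of 40 (15.0%) knockdown-only and 5 of 36 (13.9%) control-only, where all loci had 18.9% and 22.6%. The list does not hold every nuclear lncRNA with loci, so these shares describe its own genes. LINC-PINT, a p53-induced lncRNA, held 35 of the loci and had 26 and 25 peaks in shMETTL3 and 21 and 20 in shControl. FIRRE, a repeat-bearing nuclear RNA of the X chromosome, had 2 peaks in each shMETTL3 list and 5 and 7 in shControl, and its strongest locus, 129 bp from the gene start, was in all 4 lists with folds of 6.55 and 5.95 in shMETTL3 and 8.43 and 6.98 in shControl. FTX, from the X-inactivation centre, had 6 and 8 peaks in shMETTL3 and 9 and 12 in shControl. NEAT1, the scaffold of paraspeckles, had 6 and 5 peaks in shMETTL3 and 5 and 3 in shControl, with low folds of 4.01 at most. The locus with that fold was the 1 NEAT1 locus on the minus strand, and 5 were on the plus strand. The start table does not give the strand of NEAT1. NORAD had 4 in each shMETTL3 list and 3 and 2 in shControl. MALAT1, KCNQ1OT1 and GAS5 had peaks only where a gene of another biotype overlaps and are therefore not among these regions.

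Of 12 melanoma lncRNAs, 11 were in the table and 3 had loci. LINC00673, linked to melanoma invasion, had 15 and 16 peaks in shMETTL3 and 7 and 9 in shControl, without overlap. MIR31HG, host of miR-31, had 5 and 7 in shMETTL3 and 11 in each shControl list, also without overlap. It had 2 control-only and 0 knockdown-only loci, but with a fold of at least 4 it had 3 more knockdown-only than control-only loci. Of genes of every biotype with at least 5 peaks, 19.4% had more peaks in both shMETTL3 lists and 27.4% fewer. SAMMSON, the lncRNA beside the melanocyte gene MITF, had 1 peak in each shMETTL3 list and 1 and 2 in shControl, and no locus in all 4 lists.

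The 28 miRNA host genes with loci had 246 of them, 30 of 132 (22.7%) knockdown-only and 24 of 116 (20.7%) control-only, near the 18.9% and 22.6% of all loci. More knockdown-only loci were found in 8 of these genes, more control-only loci in 12 and equal numbers in 8. MIR100HG, which carries miR-100, let-7a-2 and miR-125b-1, had 16 and 12 peaks in shMETTL3 and 14 and 12 in shControl. MIR646HG, picked with its values in view, had 15 and 16 in shMETTL3 and 7 and 5 in shControl. The 7 snoRNA host genes with loci had 27, 16 of them in SNHG14, the long transcript of the Prader-Willi region. SNHG14 had 9 and 7 peaks in shMETTL3 and 11 and 9 in shControl. SNHG16 had 4 and 3 in shMETTL3 and 1 and 2 in shControl, and ZFAS1 had 2 in each shMETTL3 list and 2 and 1 in shControl.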

How the data were processed

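Per the labels' protocols, chromatin-associated, ribosome-depleted RNA received an m6A spike-in, was enriched with an m6A antibody kit and made into stranded libraries. MACS2 2.2.7.1, SAMtools, HISAT2 2.1.0, Bowtie2 2.4.2 and Trim Galore 0.6.6 and the build hg38 are listed in the submitters' processing notes, without roles; how the input and spike-in entered is not stated in the sources read. The authors deposited 1 peak list per library, called per strand, per the peak names. The fold enrichment of each peak, a ratio, and its p-value and q-value, as −log10, are the authors' deposited values; the smallest −log10 q was 2.00. The deposited score was not used.

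Summits were placed in spans of 59716 RefSeq genes (GRCh38.p14), which carry no exons; gene strands came from the RefSeq start table. Peaks of the 4 lists sharing at least 1 bp on a strand were merged to loci, each given the place of its highest-fold peak's summit. Groups were compared by exact two-sided permutation of lists, and lncRNA with protein-coding peaks by exact sign flips over lists (Python 3.11.15, NumPy 2.4.6, pandas 2.3.3, SciPy 1.17.1). Merging and placing were tested on simulated peaks. The depth is unknown. Alternatives were a fold of at least 4, a −log10 q of at least 20, equal list lengths, no LOC genes, no peaks within 10 kb of coding genes, 50% reciprocal overlap, all summits in lncRNA genes, a replicate block and each list left out. Named genes were, among lncRNA genes other than LOC genes, those with most loci of each kind, those with the highest-ranked loci and up to 4 per gene list; LOC genes are named only as exceptions, with their values seen. The members and lists were chosen with earlier results of these data known.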

Additional observations from a re-analysis of the deposited data

How the results depend on the processing

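The 126 list-level values and settings kept their direction in 116 cases. Differences below are shMETTL3 minus shControl unless stated. With a fold of at least 4, lncRNA peaks per list differed by 147 and covered length by 50.1 kb, loci numbered 487 in all 4 lists, 240 knockdown-only and 190 control-only, and 81 genes had only control-only loci. With a −log10 q of at least 20, median width differed by 3.75 bp, median −log10 q by 0.598 and median fold, lncRNA minus protein-coding, by 0.131, and loci numbered 818, 230 and 317 in the same order. With equal list lengths, peaks differed by 63.5. Without LOC genes, loci numbered 815, 244 and 304, 54 genes had all such loci knockdown-only and 77 control-only, and over 10 kb from coding genes these gene counts were 58 and 91; both settings hold fewer genes. Leaving out each list in turn, the share differed by -0.0428 to 0.177 percentage points, median width by -5.50 to 1.5 bp and median −log10 q by -0.724 to 0.615. Knockdown-only loci then numbered 449 to 698 (663 and 698 without shMETTL3 replicate 1 and 2) and control-only loci 671 to 904 (904 without shControl replicate 1), since 1 list then stands for its group. Control-only minus knockdown-only loci of a gene turned round with a fold of at least 4 in MIR548XHG (-1), LINC02484 (-1), MIR31HG (-3) and MIR100HG (-1), with a −log10 q of at least 20 in LINC02335 (1), with equal lengths in MIR100HG (-2) and with 50% reciprocal overlap in ZFPM2-AS1 (2) and LINC01029 (1). With a list left out they ranged from -1 to 3 in LINC02055 and from -1 to 3 in MIR100HG. For these the cause was not tested. Of 540 such values for named genes, 408 stayed in direction and within 1.5 times, 122 moved and 10 turned round. Ignoring pseudogenes without transcripts, an alternative chosen after seeing the data, gave 1412 loci in all 4 lists and 547 control-only.

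With a replicate block, the difference in lncRNA peaks was -151 (exact p = 0.5, the smallest that 2 pairs allow), and no call changed. Replicates share only a number: over 14109 genes the replicate differences of the groups correlated at 0.01. Depth is unknown, so a missing peak is not a shown absence of m6A, and with 2 lists a group no test could pass 0.05.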
